A study of Mus musculus with 10 samples.

Results

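The major apolipoproteins of the liver were followed here as 10 genes: Apoa1, Apoa2, Apoa4, Apob, Apoc1, Apoc3, Apoc4, Apoe, Apom and Lcat, the last encoding an enzyme that works on apolipoprotein particles. They were taken by gene symbol from a table of 55487 genes, and all 10 passed the filter on low counts that left 15894 genes for testing. The samples are livers of mice aged 22 months (strain C57B/6J as labelled) that ate normal chow, with littermates of both genotypes housed together. The Flox group holds 5 libraries of Arg2fl/fl mice, whose Arg2 gene carries loxP sites and is intact, and the LKO group holds 5 libraries of Arg2LKO mice, in which Arg2 was deleted in hepatocytes. Both groups therefore carry the floxed alleles, and the labels name neither the Cre line nor the sex of the mice. Arg2 encodes arginase 2, the arginase of mitochondria. RNA was primed or selected with oligo-dT and sequenced, and the values are read counts per gene. Of the 10 genes, 0 differed between LKO and Flox at an adjusted p under 0.05, and 0% of all genes tested did.

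Apolipoproteins are the protein coats of the particles that carry cholesterol and triglyceride through the blood. Hepatocytes make most of them: Apob is the scaffold of very low density lipoprotein (VLDL), Apoa1 and Apoa2 are the main proteins of high density lipoprotein (HDL), and the small C proteins and Apoe move between particles and decide how fast lipases and receptors clear them. Several of the genes lie in clusters on the chromosome, and in mouse and human liver some of the genes belong to the most abundant messenger RNAs.

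The Arg2 deletion itself could not be checked in these counts. Arg2 had 0, 4, 0, 5 and 0 counts in Flox libraries 1 to 5 and 0, 0, 0, 4 and 6 counts in LKO libraries 1 to 5, so both groups were near the limit of detection, and a count over the whole gene does not show which exons were lost. The LKO columns of the table are numbered 1 to 5 while the LKO titles run on from the Flox numbers, so an LKO library is named by its column and is not tied to a title. Libraries held 43331354 to 54951415 gene counts. At that depth counting error was small for these genes: the 95% Wilson interval of a share of counts reached at most 4.40% of the value to either side, and as little as 0.147%. Without molecular identifiers such an interval reflects counting error alone. Albumin, the marker of hepatocytes, made up 3.60% to 12.1% of all counts, so the libraries carried the labelled tissue.

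Flox libraries 2 and 3 stood apart from the rest. The serum amyloid genes Saa1 and Saa2, which the liver secretes in an acute phase response, together took 1.72% and 3.43% of their counts. They took 0.394% in Flox 4, 0.0097% in Flox 1 and 0.0079% in Flox 5, and at most 0.0803% in any LKO library. All 26 genes of an acute phase list had lower estimates in LKO, 17 of them at an unadjusted p under 0.05 and 0 after adjustment. Of all 15894 genes tested, 1193 (7.51%) were at an unadjusted edgeR p under 0.05, 689 of them lower in LKO. The list's summed level ran from 30883 to 178613 CPM (gene counts scaled to a common library total) in Flox and from 31408 to 57953 CPM in LKO. The log2 fold change of each of the 10 genes, and of other genes named below for a low unadjusted p, is therefore also given without Flox 2 and 3. The part of the acute phase difference was not tested beyond that.

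The genes lie on 6 chromosomes (GRCm38, GENCODE M21, 1-based). Apoa1 (chr9:46228580-46230466, plus strand), Apoc3 (chr9:46232933-46235636, minus strand) and Apoa4 (chr9:46240696-46243459, plus strand) form one cluster, with 2466 bases between Apoa1 and Apoc3 and 5059 between Apoc3 and Apoa4. Apoe (chr7:19696109-19699188), Apoc1 (chr7:19689481-19692660) and Apoc4 (chr7:19678083-19681479) form the other, all on the minus strand, with 3448 and 8001 bases between neighbours. Apoa2 (chr1:171225054-171226379, plus), Apob (chr12:7977648-8016835, plus), Apom (chr17:35128997-35132050, minus) and Lcat (chr8:105939551-105943382, minus) lie alone.

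Promoter sequence was matched for 8 of the 10 genes in RefSeq's table for GRCm38.p6, and Apoc1 and Apoc3 were not in it. Stretches are shown for 4 of them: Apoe and Apoa2, whose levels followed each other most closely over the libraries, Apob, the scaffold protein, and Apoc4, the steadiest of the 10 within groups. Each runs 5′ to 3′ on the gene's own strand up to the gene's annotated start, with bases that GENCODE places inside the gene left out, and capitals mark a match to one of 4 short motifs searched on both strands.
Apoe, chr7:19699189-19699438, minus strand: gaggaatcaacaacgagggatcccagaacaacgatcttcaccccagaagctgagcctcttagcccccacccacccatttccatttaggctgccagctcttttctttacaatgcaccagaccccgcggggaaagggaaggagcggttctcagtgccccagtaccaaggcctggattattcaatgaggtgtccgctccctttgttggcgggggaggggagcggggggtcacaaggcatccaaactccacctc
Apoa2, chr1:171224804-171225053, plus strand: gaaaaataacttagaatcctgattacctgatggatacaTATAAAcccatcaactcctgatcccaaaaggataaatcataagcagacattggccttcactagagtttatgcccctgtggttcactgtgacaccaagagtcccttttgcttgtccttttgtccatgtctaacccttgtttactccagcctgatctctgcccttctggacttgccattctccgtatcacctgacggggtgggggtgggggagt
Apob, chr12:7977427-7977647, plus strand: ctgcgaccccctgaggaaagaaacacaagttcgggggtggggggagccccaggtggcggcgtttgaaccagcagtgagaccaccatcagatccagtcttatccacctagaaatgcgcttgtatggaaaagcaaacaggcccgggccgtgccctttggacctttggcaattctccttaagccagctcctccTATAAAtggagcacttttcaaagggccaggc
Apoc4, chr7:19681480-19681710, minus strand: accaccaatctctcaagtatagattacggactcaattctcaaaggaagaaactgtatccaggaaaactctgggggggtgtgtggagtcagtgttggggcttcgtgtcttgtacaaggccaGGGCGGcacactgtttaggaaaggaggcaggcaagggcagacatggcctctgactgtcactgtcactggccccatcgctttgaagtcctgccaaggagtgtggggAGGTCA

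The motifs were the TATA box TATAAA, the nuclear receptor half-site AGGTCA, the HNF4-type site CAAAGTCCA and the GC box GGGCGG, searched in the 250 bases before each RefSeq start. TATAAA lay 60 to 55 bases before the RefSeq start of Apob and 212 to 207 bases before that of Apoa2. Apoc4 held AGGTCA 25 to 20 bases and GGGCGG 130 to 125 bases before its RefSeq start. The Apob and Apoc4 stretches shown end 29 and 19 bases short of those RefSeq starts, because these bases lie inside the GENCODE gene. The Apoe stretch shown held none of the 4, and a second Apoe start inside the gene had TATAAA on both strands, in overlapping positions. Counting every start of a gene, TATAAA stood before 3 of 8 genes, AGGTCA before 2, GGGCGG before 1 and CAAAGTCCA before 0. Apoe has 3 starts in this count and Apoa2 has 2, and the AGGTCA of Apoa2 lies before its second start, upstream of the stretch shown. Among all 32851 RefSeq windows of this length, 12.4% held TATAAA, 14.0% AGGTCA, 32.7% GGGCGG and 0.384% CAAAGTCCA. These shares are per window and not per gene. These are matches of letters, and nothing about binding was measured.

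**Figure D1:**
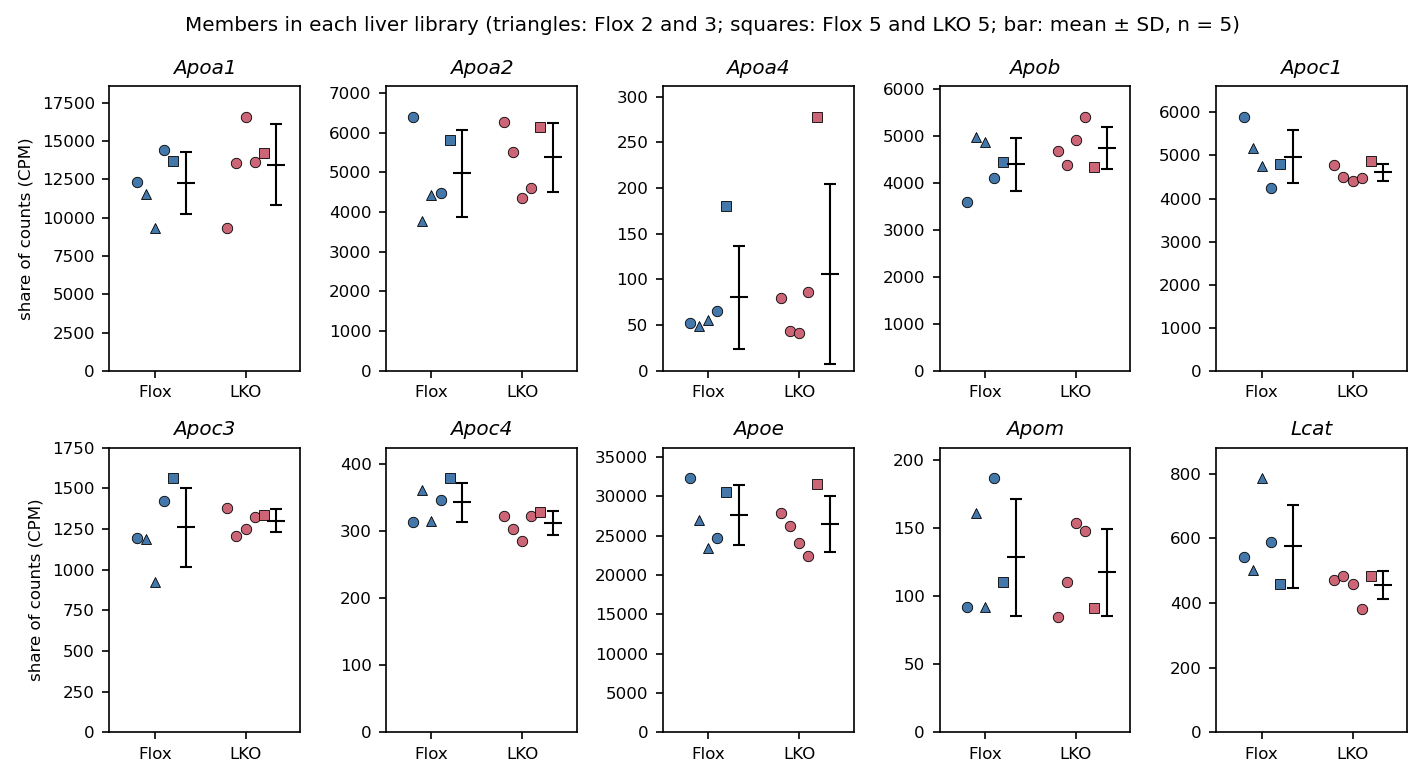
Share of gene counts in CPM (vertical axes, linear from 0) of the 10 genes in each library, with blue for Flox and red for LKO, triangles for Flox 2 and 3, squares for Flox 5 and LKO 5, and bars for the mean ± SD of 5 libraries. The groups overlap in every panel, and in the Apoa4 panel the squares, at 180 and 278, stand above all other points.

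Apoa1 and Apoa2, the main HDL proteins, had slightly higher estimates in LKO, within the spread of the libraries. Apoa1, which forms the HDL particle and activates Lcat, stood at 12358, 11524, 9334, 14443 and 13716 CPM in Flox libraries 1 to 5 and at 9321, 13558, 16611, 13621 and 14228 CPM in LKO libraries 1 to 5. The lowest of these values belonged to LKO 1 and the highest to LKO 3, so LKO spanned the whole range of Flox. Flox averaged 12275 ± 2000 CPM and LKO 13468 ± 2631 CPM (SD, n = 5 libraries per group, as for all means below). The log2 fold change of LKO over Flox from edgeR's quasi-likelihood test, here and below after TMM scaling, was 0.17 ± 0.19 (SE, 95% interval −0.24 to 0.58, adjusted p = 0.797). Without Flox 2 and 3 it was 0.03.

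Apoa2, the other structural protein of HDL, gave 6404, 3764, 4429, 4473 and 5823 CPM in Flox and 6255, 5521, 4348, 4613 and 6148 CPM in LKO. High and low libraries occurred in both groups, and the highest 4 were Flox 1, LKO 1, LKO 5 and Flox 5. The edgeR estimate (log2 fold change) was 0.14 ± 0.19 (adjusted p = 0.838), and −0.02 without Flox 2 and 3. Apoa1 and Apoa2 did not go together over the libraries. Apoa2 counts per 100 Apoa1 counts ran from 26.2 in LKO 3 to 67.1 in LKO 1, with means of 41.1 ± 9.09 in Flox and 42.2 ± 15.4 in LKO.

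Apom carries the lipid messenger sphingosine phosphate on HDL. Its values were 92.2, 161, 92.3, 187 and 110 CPM in Flox and 84.6, 110, 154, 148 and 91.7 CPM in LKO. In each group, 2 libraries were well above the other 3, and the groups overlapped throughout. LKO over Flox gave a log2 fold change of −0.08 ± 0.23 (95% interval −0.59 to 0.43, adjusted p = 0.927), and −0.10 without Flox 2 and 3.

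Lcat esterifies cholesterol on HDL, with Apoa1 as its activator, and came closest to the threshold. It gave 541, 501, 786, 589 and 459 CPM in Flox and 470, 484, 459, 382 and 483 CPM in LKO. Flox 3, the library with the most serum amyloid counts, was the highest, LKO 4 was the lowest, and Flox 5 lay among the LKO values, so the groups overlapped. Flox averaged 575 ± 127 CPM and LKO 456 ± 42.6 CPM. The estimate was a log2 fold change of −0.30 ± 0.15 (95% interval −0.62 to 0.03, unadjusted p = 0.0693, adjusted p = 0.652). A two-sided exact permutation test of the share of counts, whose smallest possible p with 5 libraries per group is 0.00794, gave p = 0.0476 for Lcat and 0.683 after adjustment over all genes tested. Lcat was the only one of the 10 genes at p under 0.05 in that test, which 6.64% of all genes tested also reached. Without Flox 3 the log2 fold change was −0.16, and without Flox 2 and 3 it was −0.19 (adjusted p = 0.999). Over all alternatives the adjusted p of Lcat ran from 0.395 to 0.999.

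Apob makes the body of VLDL and low density lipoprotein. It stood at 3603, 4976, 4867, 4100 and 4446 CPM in Flox and at 4667, 4372, 4908, 5410 and 4328 CPM in LKO. Flox 1 was the lowest and LKO 4 the highest, and Flox 2 and 3 were the highest of their group, the opposite of their place for Apoa1. Apob had a log2 fold change of 0.15 ± 0.14 (95% interval −0.16 to 0.46, adjusted p = 0.769). Without Flox 2 and 3 it was 0.26 (unadjusted p = 0.0928, adjusted p = 0.999).

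Apoe, the ligand by which remnant particles are taken up by the liver, gave 32308, 26921, 23359, 24679 and 30550 CPM in Flox and 27828, 26275, 24040, 22456 and 31589 CPM in LKO. Flox 1, LKO 5 and Flox 5 were the highest 3 and LKO 4 the lowest. Flox averaged 27563 ± 3803 CPM and LKO 26437 ± 3539 CPM, and the difference was well inside the spread of either group. Its log2 fold change was −0.03 ± 0.18 (95% interval −0.41 to 0.36, adjusted p = 0.971), and −0.11 without Flox 2 and 3.

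The C apolipoproteins are small exchangeable proteins that tune lipolysis and uptake. Apoc1, which slows the uptake of remnants, gave 5904, 5177, 4760, 4237 and 4798 CPM in Flox and 4786, 4496, 4410, 4467 and 4866 CPM in LKO. All LKO values lay within the Flox range, and the log2 fold change was −0.08 ± 0.14 (adjusted p = 0.889). Leaving out Flox 1, the highest library, moved it to 0.01, and without Flox 2 and 3 it was −0.09.

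Apoc3 inhibits lipoprotein lipase and keeps triglyceride in the blood. It gave 1194, 1189, 924, 1424 and 1563 CPM in Flox and 1379, 1204, 1249, 1326 and 1338 CPM in LKO. Again LKO lay inside the Flox range, with an SD of 71.0 CPM against 245 CPM in Flox. The estimate was a log2 fold change of 0.09 ± 0.15 (adjusted p = 0.876). It was −0.06 without Flox 2 and 3 and −0.01 without Flox 3 alone, the library with the lowest Apoc3.

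Apoc4 gave 313, 361, 315, 346 and 379 CPM in Flox and 323, 303, 286, 322 and 329 CPM in LKO. The highest 3 values were Flox and the lowest 2 were LKO, while the other 5 were mixed. Flox averaged 343 ± 28.9 CPM and LKO 313 ± 17.8 CPM. The difference gave a log2 fold change of −0.09 ± 0.10 (95% interval −0.30 to 0.12, adjusted p = 0.785) and an exact permutation p of 0.0952 for the share. Its interval was the narrowest of the 10, from 0.810-fold to 1.09-fold, and without Flox 2 and 3 the log2 fold change was −0.11.

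Apoa4, a lipid-binding protein that the liver makes at a low level and that responds to nutritional state, was carried by single libraries. It gave 51.9, 48.8, 56.0, 65.8 and 180 CPM in Flox and 80.1, 44.1, 41.5, 86.8 and 278 CPM in LKO. Flox 5 and LKO 5 were each far above the other 4 libraries of their group. All libraries together gave a log2 fold change of 0.44 ± 0.60 (95% interval −0.90 to 1.78, adjusted p = 0.841), −0.29 without LKO 5, 0.97 without Flox 5 and 0.14 without Flox 2 and 3. In the same libraries Rgs16, a regulator of G protein signalling, reached 75.6 CPM (Flox 5) and 187 CPM (LKO 5), and lay between 2.52 and 42.6 CPM in the other 8. Rgs16 was picked after its values were seen, and its relation to Apoa4 was not tested.

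**Figure D2:**
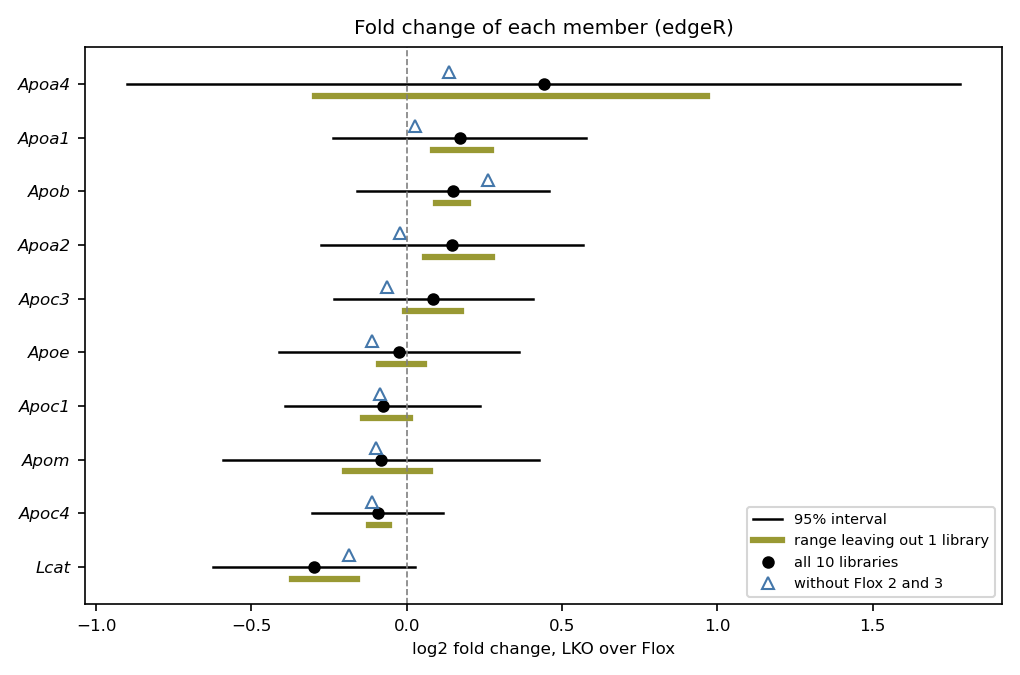
Log2 fold change of LKO over Flox (horizontal axis) for the 10 genes, ordered by size, with black points and lines for the estimate and its 95% interval from edgeR, thick bars for the range when 1 library is left out, and triangles for the estimate without Flox 2 and 3. Every interval includes 0, from the narrow one of Apoc4 to that of Apoa4, which runs from −0.90 to 1.78.

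Over the 10 genes, 5 had higher and 5 had lower estimates in LKO, and their median log2 fold change was 0.03 against −0.01 over all genes tested. Without Flox 2 and 3, 3 were higher and 7 lower, with a median of −0.07. The number called at an adjusted p under 0.05 was 0 of 10, where edgeR called 0 of 15894 genes (0%). At an unadjusted p under 0.05 the number was also 0 of 10, against 1193 genes (7.51%). The number whose groups did not overlap was 0 of 10, against 150 genes (0.944%). DESeq2, which adjusted p over 8184 genes, called 11 genes and limma-voom 0, and 0 of the 10 were among them. At an unadjusted p under 0.05 DESeq2 had 1380 genes and limma-voom 1049. The smallest adjusted p in the edgeR test was 0.652, so single differences of any gene are read here as values. For 9 of the 10 genes the 95% interval lay within a fold of 0.649 to 1.49, and the interval of Apoa4 ran from 0.536 to 3.44.

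Together the 10 genes took a steady share of the RNA. Their summed share was 6.28%, 5.46%, 4.89%, 5.45% and 6.20% of all gene counts in Flox and 5.52%, 5.64%, 5.65%, 5.28% and 6.37% in LKO. Flox 3 was the lowest and LKO 5 the highest, and the highest library held 1.30 times the lowest. Flox averaged 5.66% ± 0.580 and LKO 5.69% ± 0.406, a difference of 0.0339 percentage points that is smaller than either SD. Under other denominators and with libraries left out, the difference ran from −0.286 percentage points, without Flox 2 and 3, to 0.231.

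By contrast, 150 of the 15894 genes tested (0.944%) did not overlap between the groups, and albumin was among them. It took 8.23%, 5.80%, 3.60%, 8.43% and 9.55% of the counts in Flox and 10.1%, 11.0%, 12.1%, 9.79% and 10.4% in LKO. Its log2 fold change was 0.62 ± 0.26 (unadjusted p = 0.0337, adjusted p = 0.652, edgeR), and 0.32 without Flox 2 and 3 (unadjusted p = 0.0859). In Flox 3, which had the least albumin and the most serum amyloid, the apolipoprotein share was 4.89% against a Flox mean of 5.66%. Mitochondrially encoded genes took 3.12% to 8.38% of the counts, and without them in the denominator the difference in apolipoprotein share was 0.0824 percentage points.

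**Figure D3:**
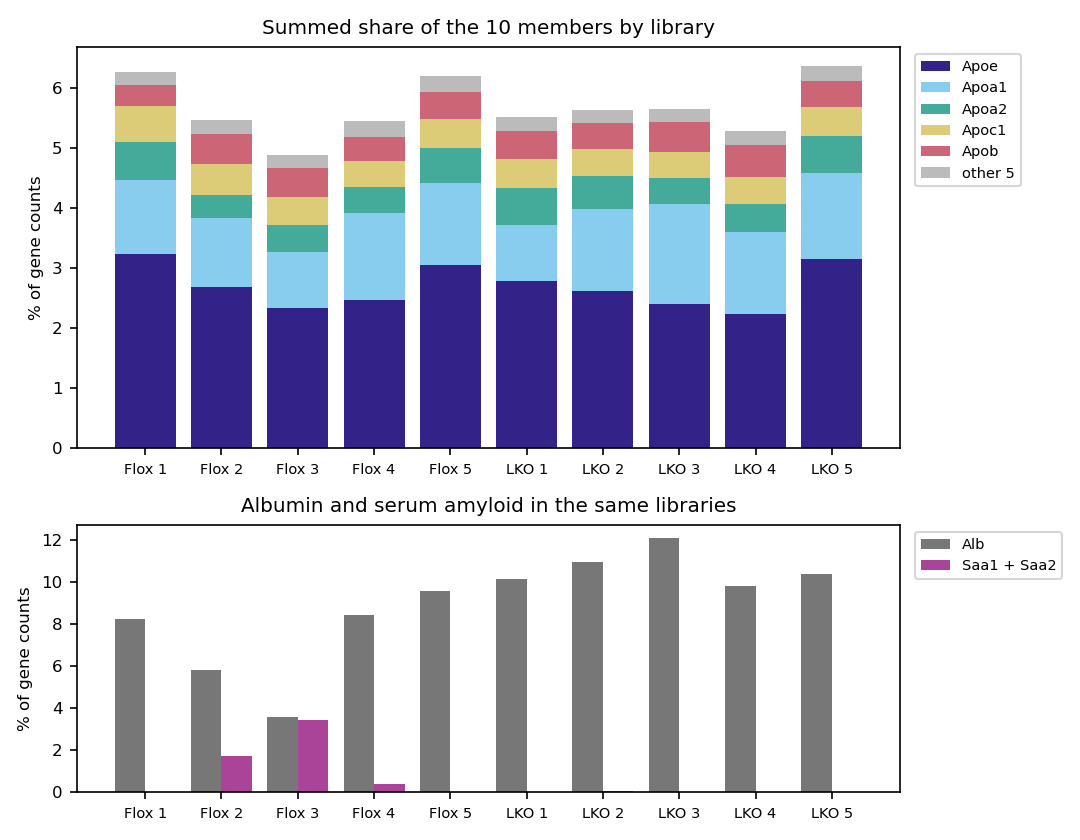
Summed share of the 10 genes in percent of all gene counts for each library (top, stacked by gene), and the share of albumin and of Saa1 plus Saa2 in the same libraries (bottom). The stacked bars lie between 4.89% and 6.37%, while in Flox 3 albumin is at 3.60% and serum amyloid at 3.43%.

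Within that sum the balance of the genes differed between libraries of one group. Apoe made up 48.6% ± 2.30 of the counts of the 10 genes in Flox and 46.3% ± 3.76 in LKO. Apoa1 counts per 100 Apoe counts ran from 33.5 in LKO 1 to 69.1 in LKO 3, with means of 44.9 ± 8.04 in Flox and 52.0 ± 13.8 in LKO. Both extremes of this ratio were LKO libraries. The chromosome 7 cluster of Apoe, Apoc1 and Apoc4 held 3.29% ± 0.427 of all counts in Flox and 3.14% ± 0.374 in LKO, and the chromosome 9 cluster of Apoa1, Apoc3 and Apoa4 held 1.36% ± 0.226 and 1.49% ± 0.259. Apoc1 counts per 100 Apoe counts stayed between 15.4 and 20.4 in all 10 libraries, the highest being 1.32 times the lowest.

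Levels of different genes were compared per kilobase of exon, as CPM per kb averaged over the 10 libraries. Apoe was the highest at 12629 ± 1643 (SD, n = 10), followed by Apoa1 at 10414 ± 1854, Apoa2 at 9642 ± 1778, Apoc1 at 6438 ± 640 and Apoc3 at 1261 ± 169. Lcat followed at 384 ± 81.6, Apob at 328 ± 36.7, Apoc4 at 129 ± 10.9, Apom at 122 ± 35.8 and Apoa4 at 51.4 ± 42.3. Some neighbours in this order were not separated. Apoe exceeded Apoa1 in 7 of 10 libraries, Apoa1 exceeded Apoa2 in 7, Lcat exceeded Apob in 8 and Apoc4 exceeded Apom in 6. Apoa2 over Apoc1, Apoc1 over Apoc3, Apoc3 over Lcat and Apob over Apoc4 held in all 10, and Apom over Apoa4 in 9.

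The place of Apoa4 and Apoc4 depends on how reads were assigned. Of the 1815 exon bases of Apoa4, 634 overlap the opposite-strand gene Gm47528 and 632 overlap the opposite-strand gene Gm10680, which leaves 549 unshared. The 2 overlapping genes had 0 to 24 and 0 to 1 counts per library, against 1986 to 14994 for Apoa4. Whether counting used strand, and what was done with reads in shared exons, is not given in the sources used here. Dividing by unshared exon bases instead gives means of 170 CPM per kb for Apoa4 and 136 for Apoc4. The mean of Apoa4 is then above those of Apoc4 and Apom. Flox 5 and LKO 5 raise it, at 180 and 278 CPM of Apoa4 against 41.5 to 86.8 CPM in the remaining libraries. This order of the means does not hold in every library.

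The genes beside the 2 clusters were read in the same way. Apoa5, an activator of lipoprotein lipase that lies 25173 bases beyond Apoa4, was at 682 ± 137 CPM in the Flox group and 604 ± 197 CPM in LKO (log2 fold change −0.14, edgeR adjusted p = 0.864, and −0.23 without Flox 2 and 3). Apoc2, the cofactor of lipoprotein lipase, lies 141 bases beyond Apoc4 and had only 14 to 45 counts per library. Of its 813 exon bases, 646 (79.5%) are shared with the same-strand gene Gm44805, which had 0 counts in every library, so the Apoc2 level in this table is uncertain and was not read as expression. Gm44805 also covers 119 of the 2537 exon bases of Apoc4 (4.69%).

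**Figure D4:**
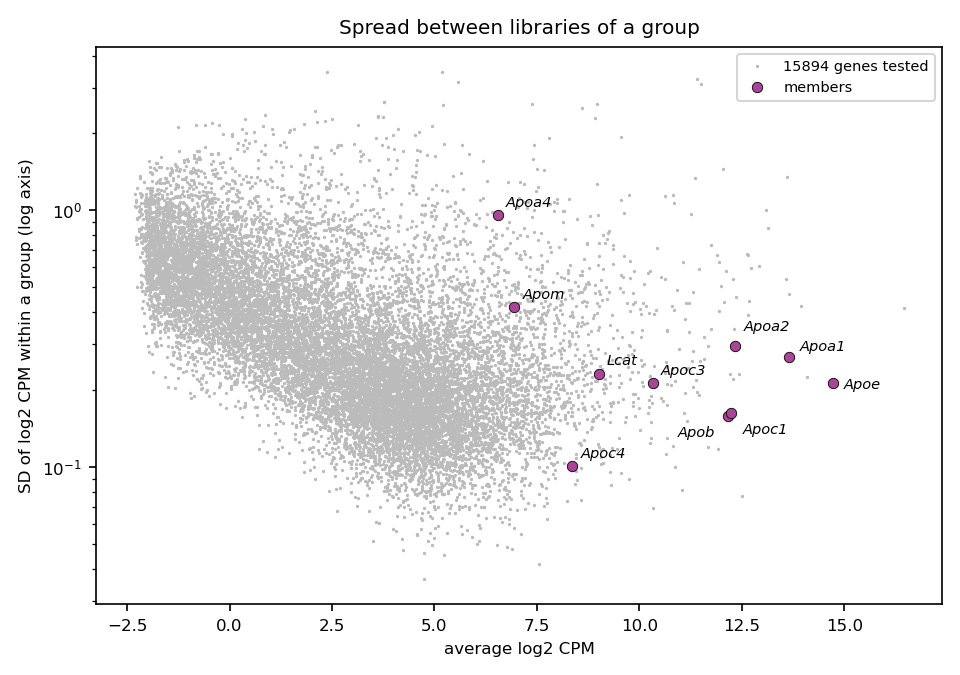
Standard deviation of log2 CPM within a group (vertical axis, log scale) against average log2 CPM (horizontal axis) for the 15894 genes tested (grey) and the 10 apolipoprotein genes (purple). Apoa4, at 0.95, lies near the top of the cloud and Apoc4, at 0.10, near its lower edge.

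The 10 genes differed widely in their spread within groups, measured as the SD of log2 CPM within a group. Its median was 0.29 over all genes tested and 0.26 over the 464 genes whose average log2 CPM was 8 or more. Apoc4 had 0.10, and only 3.13% of tested genes had less. Apob and Apoc1 had 0.16 each, Apoe and Apoc3 0.21, Lcat 0.23, Apoa1 0.27 and Apoa2 0.30. Apom had 0.42 and Apoa4 0.95, and 95.1% of tested genes had a smaller spread than Apoa4. Apom, at an average log2 CPM of 6.94, had a wider spread than Apoc4 at 8.36, and Apoe at 14.72 had a wider one too.

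Genes in one cluster followed each other to differing degrees. Over the 10 libraries and the 45 pairs of genes, Pearson's r of log2 CPM was highest for Apoa2 and Apoe, which lie on different chromosomes (r = 0.79, Spearman's rho = 0.70). Without the 2 libraries farthest from the median of Apoa2, their r was 0.90. Within the chromosome 7 cluster r was 0.74 for Apoe and Apoc1, 0.39 for Apoe and Apoc4 and 0.21 for Apoc1 and Apoc4. Without the 2 libraries farthest from the median of Apoc1, Apoc4 and Apoc1 in turn, these were 0.55, 0.20 and 0.66. Within the chromosome 9 cluster r was 0.46 for Apoa1 and Apoc3, 0.53 for Apoa4 and Apoc3 and 0.13 for Apoa1 and Apoa4. Without the 2 libraries farthest from the median of Apoa1, Apoa4 and Apoa1 in turn, these were 0.27, 0.46 and 0.08. These values describe 10 libraries that share a scale, and no test was made of them.

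Some pairs went in opposite directions. Apoa2 and Apom had r = −0.75 over all libraries and −0.98 without Flox 2 and 3, and Apoe and Apom had −0.58 and −0.87. In the values above, Apom was highest in Flox 4, Flox 2, LKO 3 and LKO 4, and these 4 libraries were among the 5 lowest for Apoa2. The pair Apoc3 and Lcat had r = −0.75, which was −0.24 without Flox 2 and 3, so it rests on those libraries. Apoa1 and Apoc3 went from 0.46 to −0.35 in the same step.

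**Figure D5:**
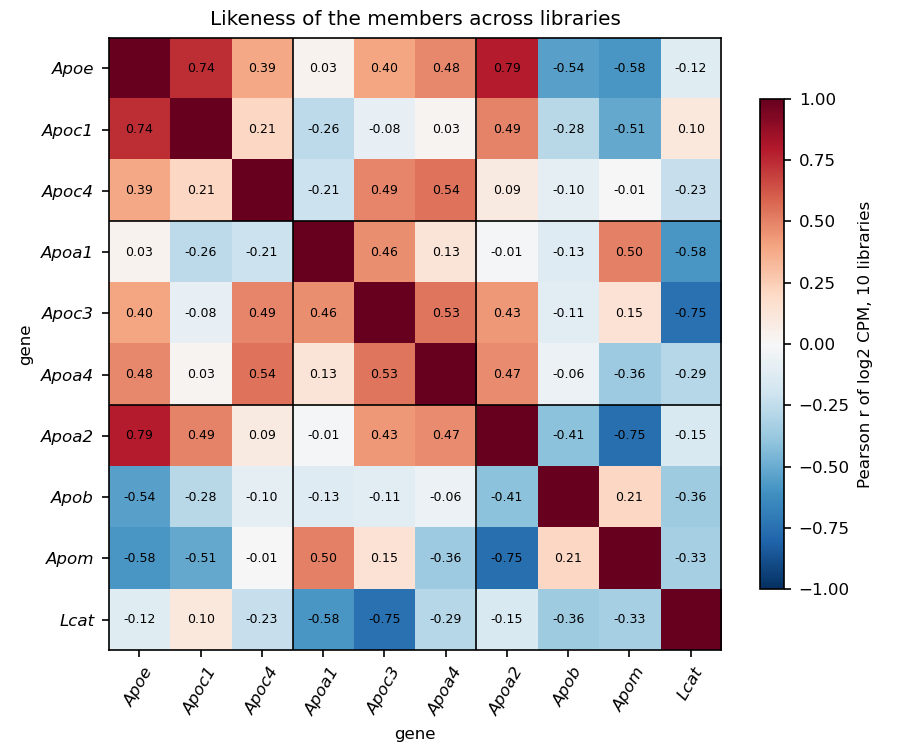
Pearson's r of log2 CPM over 10 libraries for each pair of the 10 genes (both axes), with black lines around the chromosome 7 and chromosome 9 clusters. The reddest square off the diagonal, 0.79, joins Apoe and Apoa2 across chromosomes, and the bluest, −0.75, joins Apom with Apoa2 and Lcat with Apoc3.

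For each of the 10, the genes most alike in log2 CPM over the 10 libraries were looked up among 11000 genes. These are the highest of many values and carry no test. Apoa2 was most like B630019A10Rik (r = 0.99), an antisense gene on another chromosome. Tpm1, a tropomyosin, was among the 2 most like Apoa1 (0.94). Apoa4 was most like Hlf, a transcription factor with circadian expression in liver (0.98, and 0.90 without the 2 libraries farthest from the Apoa4 median), and Alpl, the tissue non-specific alkaline phosphatase (0.94, and 0.72).

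Apoc3 was most like Lss, lanosterol synthase of the cholesterol pathway (0.97). Flox 3 was lowest in both, with 32.8 CPM of Lss, and Flox 5 was highest in both, with 132 CPM. Apoe was most like Cox5b, a subunit of cytochrome c oxidase (0.96), and Cdyl (0.95), and Apoc1 was most like Hdgf (0.94) and 4833411C07Rik (0.91). Apom was most like Enho, the adropin gene (0.95), and Serpina1e, an alpha-1 antitrypsin paralog whose near-identical copies make its counts uncertain (0.93). Apob was most like Prorsd1 and Trappc13 (0.92 each) and Apoc4 was most like Rrp8 and Dio1 (0.87 each). Lcat was most like Ubb, a polyubiquitin gene (0.95, and 0.63 without the 2 libraries farthest from the Lcat median), and Rnf114 (0.94, and 0.80).

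The wider pathway was read through lists of genes, none with a member past the adjusted threshold in edgeR. Beside the counts at an unadjusted p under 0.05 in these lists stands the 7.51% of all genes tested. A list of other apolipoproteins also held Apoo, Apool, Apobr and Apold1, so it is not limited to plasma apolipoproteins. Of its 17 genes 15 were tested, with 7 higher and 8 lower in LKO and a median log2 fold change of −0.14. Those at an unadjusted p under 0.05 were Saa4, a constitutive serum amyloid on HDL (836 ± 549 CPM in Flox and 374 ± 113 in LKO, unadjusted p = 0.0303), and Apon (533 ± 168 and 381 ± 54.8 CPM, unadjusted p = 0.0415). Their log2 fold changes were −1.12 and −0.45, and −0.27 and −0.10 without Flox 2 and 3 (unadjusted p = 0.450 and 0.501). Apoh, a phospholipid-binding plasma protein, was at 1853 ± 116 and 1907 ± 148 CPM.

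Editing of Apob messenger RNA by Apobec1 makes the short form of the protein, and mouse liver does this as well as gut. Apobec1 was at 14.3 ± 1.57 CPM in Flox libraries and 13.3 ± 2.08 CPM in LKO libraries (log2 fold change −0.07, unadjusted p = 0.563). Its cofactor A1cf gave 82.1, 79.1, 65.8, 61.5 and 83.3 CPM in Flox and 115, 86.6, 92.2, 100 and 87.5 CPM in LKO. The groups did not overlap, as in 0.944% of all genes tested. For A1cf the log2 fold change was 0.41 ± 0.13 (unadjusted p = 0.00757, edgeR adjusted p = 0.652). Rbm47, the other cofactor, was at 50.2 ± 8.38 and 59.0 ± 6.74 CPM (0.27, unadjusted p = 0.0481). Without Flox 2 and 3 the estimate was 0.38 for A1cf (unadjusted p = 0.0276) and 0.12 for Rbm47 (unadjusted p = 0.299). Of the 4 genes of the list 2 had higher and 2 lower estimates, with A1cf and Rbm47 at an unadjusted p under 0.05. Editing itself cannot be read from gene counts.

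Among 17 genes of VLDL assembly and secretion 11 had higher and 6 lower estimates, with a median log2 fold change of 0.09. Aadac, an esterase of the endoplasmic reticulum that mobilises triglyceride, was at 244 ± 41.2 CPM in Flox libraries and 321 ± 33.3 CPM in LKO libraries (0.44 ± 0.13, unadjusted p = 0.00643), and at 0.34 without Flox 2 and 3 (unadjusted p = 0.0415). Tango2 was at 26.8 ± 4.08 and 22.0 ± 1.82 CPM (−0.24, unadjusted p = 0.0400, and −0.13 without Flox 2 and 3), and no other gene of that list was under 0.05. Of 16 tested genes of HDL formation and remodelling, 8 were higher and 8 lower and 0 were at an unadjusted p under 0.05. Abca1, the transporter that loads Apoa1 with lipid, was at 142 ± 18.5 and 165 ± 29.4 CPM (0.26, unadjusted p = 0.0717).

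Among 20 tested genes of lipoprotein receptors and clearance, 11 were higher and 9 lower. Angptl8, a hepatokine that regulates lipoprotein lipase, gave 30.5, 51.2, 45.9, 62.8 and 76.8 CPM in Flox and 106, 79.0, 117, 83.8 and 90.2 CPM in LKO, without overlap, as in 0.944% of all genes tested. Its log2 fold change was 0.88 ± 0.21 (unadjusted p = 0.00122, edgeR adjusted p = 0.652), and DESeq2 called it with an adjusted p of 0.0493. The 2 adjusted p values are not directly comparable. They come from different tests, and DESeq2 adjusted over 8184 genes and edgeR over 15894. Without Flox 2 and 3 edgeR gave 0.80 (unadjusted p = 0.0154, adjusted p = 0.999). Lrp1, a remnant receptor, was at 1259 ± 459 and 869 ± 109 CPM (−0.49, unadjusted p = 0.0485), and at a log2 fold change of −0.09 without Flox 2 and 3 (unadjusted p = 0.590).

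Of 36 transcription factors known to act on apolipoprotein genes, 16 were higher and 20 lower, with a median log2 fold change of −0.01. At an unadjusted p under 0.05 stood 3 of the 36, a share near the 7.51% of all genes tested: Usf1 (log2 fold change −0.36 ± 0.12, unadjusted p = 0.0125), Srebf2, the master regulator of cholesterol synthesis (−0.24 ± 0.10, unadjusted p = 0.0359), and Nr1h2, a liver X receptor (−0.27 ± 0.12, unadjusted p = 0.0411). Their edgeR adjusted p was 0.652 in each case, and without Flox 2 and 3 the estimates were −0.28, −0.26 and −0.23. Among 26 other abundant secreted liver proteins 17 were higher and 9 lower.

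Markers of cell types were read beside these genes, and in bulk liver fewer cells of a type cannot be told apart from less RNA per cell. Of 12 hepatocyte markers 7 were higher and 5 lower, with a summed level of 53308 to 123555 CPM in Flox and 123608 to 149790 CPM in LKO, mostly albumin. Macrophages and Kupffer cells, which also make Apoe, had 18 of 18 markers lower in LKO, 0 of them at an unadjusted p under 0.05, with sums of 198 to 941 CPM in Flox and 117 to 735 CPM in LKO. All 7 tested red cell markers were higher in LKO, 6 at an unadjusted p under 0.05 and 0 after adjustment, with sums of 228 to 416 CPM and 446 to 871 CPM. Of 11 tested T and NK cell markers 10 were lower, 4 at an unadjusted p under 0.05, with sums of 4.93 to 13.5 CPM and 2.43 to 6.28 CPM. Among all genes tested, 7.51% were at an unadjusted edgeR p under 0.05.

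Endothelial markers had 4 higher and 4 lower, and stellate cell markers the same split, and in each list 1 was lower at an unadjusted p under 0.05. Bile duct markers had 3 higher and 2 lower. Of the 8 markers of intestinal epithelium, the other main source of Apoa4 and Apob, only Fabp2 passed the filter on low counts, at 57.1 ± 25.9 and 58.1 ± 30.0 CPM in the 2 groups. No marker found in the table was at 0 in every library. The part of these cell types in the apolipoprotein values was not tested.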

How the data were processed

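Poly(A)-directed RNA-seq (oligo-dT, per the labels' protocols) of 10 mouse liver libraries was read from 1 deposited table of counts, whole numbers of reads per Ensembl gene with no normalization, per the file headers. GRCm38, STAR 2.5.1a, featureCounts 1.4.6-p5, Subread and bcl2fastq are listed in the submitters' processing notes. Strandedness, annotation release and the handling of shared reads were not stated in the sources at hand. Of 55774 lines, 287 repeats with identical counts were dropped, and 55141 of 55487 identifiers were in GENCODE M21. A count of 0 allows 3 counts, or 0.0546 to 0.0692 CPM. Over the 45 pairs of libraries the mean chi-square per gene was at least 41.2, so none agreed within sampling noise.

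Genes were filtered with filterByExpr and compared with edgeR 4.0.16 (R 4.3.3; TMM, robust quasi-likelihood F test, two-sided, Benjamini-Hochberg over all genes tested, threshold 0.05), SE from the F statistic. DESeq2 1.42.0 and limma 3.58.1 (voom with sample weights) were alternatives, with other scalings, no filter, other denominators and libraries left out. CPM are counts scaled by the library total, and log2 CPM used a prior count of 2. Levels per kb used GENCODE exon bases. The fit and the permutation test were tested on simulated data. The labels do not say in so many words that each library is a separate mouse, so p-values measure only the spread between these libraries. The rule for named genes took the 10 genes, their chromosomal neighbours, up to 4 genes per list with the smallest p, and the 2 genes most like each; some genes it took are left to counts or are not reported here. Genes and lists were chosen with earlier results of these data known.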

Additional observations from a re-analysis of the deposited data

Results flagged for a closer look

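Within a group of 5 libraries, 3 of the 22 groups examined had an extreme library that lay far from the next one relative to the whole range, where chance sets apart about 1 in 20 groups. Apoa4 was at 180 CPM in Flox 5, with 65.8 CPM in the next library and 55.6 ± 7.40 CPM over the other 4. Apoa4 was also at 278 CPM in LKO 5, with 86.8 CPM in the next and 63.1 ± 23.7 CPM over the other 4. Lcat was at 382 CPM in LKO 4, below the next library at 459 CPM and the other 4 at 474 ± 11.8 CPM. Leaving out LKO 4, the difference in the Lcat share was −101 CPM, against −120 CPM with all libraries.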

How the results depend on the processing

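None of the 10 apolipoprotein genes was called under any of the 17 alternatives, and edgeR and limma-voom called 0 genes in all, whereas DESeq2 called 11. The small estimates changed sign easily. Without Flox 2 and 3 the log2 fold change was −0.021 for Apoa2 and −0.064 for Apoc3, and the difference in share was −37.8 CPM for Apoa1, −190 CPM for Apoa2 and −94.5 CPM for Apoc3. With limma-voom Apoa4 was at −0.080. Leaving out each library in turn, the log2 fold change ran from −0.29 (without LKO 5) to 0.97 for Apoa4, from −0.14 to 0.010 for Apoc1 (positive without Flox 1), from −0.0057 (without Flox 3) to 0.17 for Apoc3, from −0.089 to 0.057 for Apoe (positive without Flox 1, Flox 5, LKO 3 or LKO 4) and from −0.20 to 0.075 for Apom (positive without Flox 2, Flox 4 or LKO 1). The difference in share then ran from −17.4 to 50.5 CPM for Apoa4, −43.4 to 116 CPM for Apoc3, −2414 to 60.4 CPM for Apoe and −19.9 to 3.73 CPM for Apom. The cause was not tested. Apoa1, Apob, Apoc4 and Lcat kept the sign of their log2 fold change under all 17. The log2 fold change of Lcat went from −0.37 (unadjusted p = 0.0297, without Flox 5) to −0.16 (without Flox 3). The unadjusted edgeR p of Lcat was also under 0.05 with plain library totals (0.0441) and with no low count filter (0.0386). No paired analysis was possible because the labels give the groups no shared replicate numbers. Counting error is small at this depth, and the number of libraries and their spread limit what could be detected.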
